A study of Mus musculus with 6 samples.

Results

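The genes examined here encode 9 surface receptors and 1 granule protein of natural killer (NK) cells and other cytotoxic lymphocytes. They were chosen by symbol, Klrk1, Ncr1, Klrb1c, Cd226, Crtam, Klra4, Klrc1, Klrd1, Klrg1 and Nkg7, from the 21720 symbols of the deposited table, and all 10 were found. Their levels were compared between H22 tumours, a mouse hepatocellular carcinoma line grown under the skin of wild-type female BALB/c mice aged 6 to 8 weeks. The control group received 0.5% carboxymethyl cellulose sodium and the luteolin group received 200 mg/kg luteolin, a plant flavonoid, by daily gavage of 0.2 mL over 21 days, from when tumours had reached about 50 mm3. Each group gave 3 RNA-seq libraries, replicates 1 to 3, whose values are given in that order. Since the labels do not state that each came from a separate animal, the p-values measure the spread between these libraries. The tumours were whole tissue that holds host cells as well as H22 cells, so more cells of a type and more RNA per cell cannot be told apart.

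NK cells kill without prior priming and read the balance of activating and inhibitory receptors on their surface. Activating receptors bind stress-induced or virus-encoded ligands and signal through small adaptor proteins that carry the signalling motif, while inhibitory receptors bind MHC class I molecules or cadherins and recruit phosphatases. Most of these receptors are also carried by activated CD8+ T cells, and of the 10 genes Ncr1 is the one most closely tied to NK cells and related innate lymphoid cells. Mouse strains differ in this system. BALB/c mice carry fewer Ly49 (Klra) genes than C57BL/6 mice, the source of the mouse reference genome, and their NK cells are not stained by the usual NK1.1 antibody against the product of Klrb1c.

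Total counts ranged from 61081637 to 80442954 per library. The values behind the 10 genes were low, with 0 to 1279 counts per library, and the limits that follow from them cover counting error only. Of the values from 1 to 40 in the table, 70.3% could be divided by 4 with a remainder of 0 or 1, against 50% for evenly spread numbers, so 1 unit need not be 1 read pair and a count of 0 allows up to 3 counts or, where 1 read pair counts as 4, up to 12. Luteolin replicate 2 stood apart from the other libraries. The summed level of 10 keratinocyte genes was 9190 CPM (the count scaled to a common library total) in luteolin replicate 2, 390 CPM in replicate 1 and 17.2 CPM in replicate 3, against 4.79 to 5.58 CPM in the control group, and Krt14, Krt5, Krt1, Krt15, Lor and Dsg3 had 0 counts in every control library. Values without luteolin replicate 2 are therefore given for some of the results, and others also differ without it. Of the tumour genes, Afp, the fetal liver protein of hepatoma cells, had 56.5 ± 11.9 CPM in the control group and 37.7 ± 4.67 CPM in the luteolin group (SD, n = 3 each), while Gpc3, another hepatoma gene, had 1.04 ± 0.358 and 6.90 ± 3.31 CPM and was higher by the study's criterion given with the first comparison. Alb, the gene of albumin, had 21.4 ± 33.7 and 63.5 ± 59.9 CPM, and Apoa1 and Ttr had 0 counts in at least 1 control library.

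Of the 10 genes, 6 were up-regulated in the luteolin group by the study's criterion, which asks for p under 0.05 before adjustment and more than a 2-fold difference, and 0 were down-regulated. Over all 14963 genes tested, 11.3% were up-regulated and 1.52% down-regulated at this threshold. The up-regulated genes were Klrk1, Ncr1, Klrb1c, Cd226, Crtam and Nkg7. Klrc1, Klrg1 and Klra4 did not pass, and Klrd1 was too low to be tested. At an adjusted p under 0.05 in edgeR's quasi-likelihood fit (Benjamini-Hochberg) 0 of the genes passed, and over all genes 1.34% passed as higher and 0.187% as lower. An unadjusted p under 0.05 was found for 6 of the genes and for 20.5% of all genes tested. DESeq2 and limma's voom with sample weights each placed 5 of the genes under an adjusted p of 0.05, namely Klrk1, Klrb1c, Ncr1, Crtam and Nkg7, where 9.5% of all genes tested passed as higher in DESeq2 and 12.6% in voom. Of the 9 genes tested, 7 had every luteolin library above every control library, which was found for 15.9% of all genes tested. Luteolin replicate 2 was the highest library for 4 of the 9, Klrg1, Ncr1, Crtam and Nkg7, and for 34% of all genes tested.

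**Figure D1:**
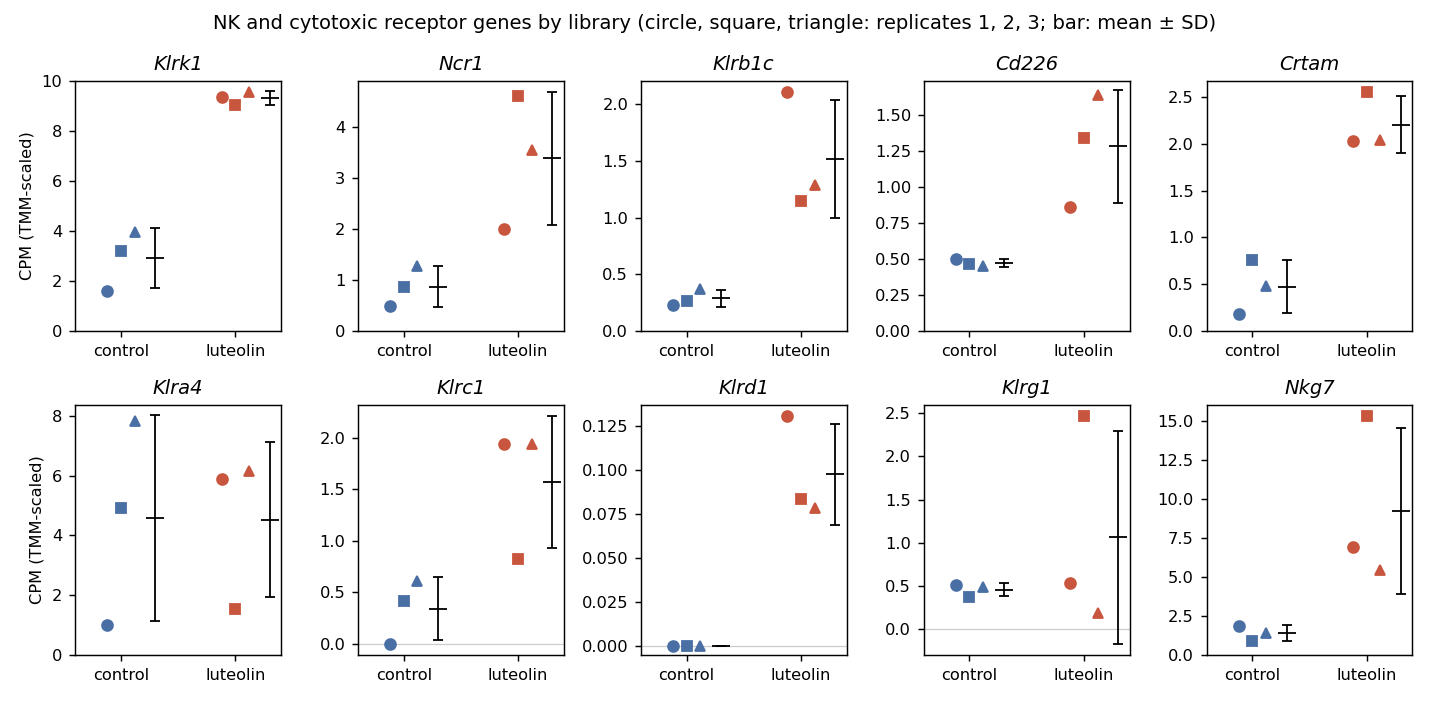
Level of each of the 10 genes in CPM (y axis, a scale of its own in each panel) in the control and luteolin groups (x axis), with circles, squares and triangles for replicates 1, 2 and 3 and black bars for the mean ± SD. Klrk1 lay from 9.04 to 9.59 CPM in the luteolin group and from 1.60 to 3.95 CPM in the control group, whereas the groups overlapped for Klra4 and Klrg1.

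Klrk1 encodes NKG2D, an activating receptor for stress-induced MHC class I-like proteins. It had 1.60, 3.20 and 3.95 CPM across the controls and 9.37, 9.04 and 9.59 CPM across the luteolin libraries. The luteolin libraries had an SD of 0.280 CPM, the narrowest relative spread of the 10 genes in that group, and lay above every control library. The log2 fold change was 1.68 (SE 0.39, edgeR adjusted p = 0.0886), where SE is the standard error and p is adjusted over all genes tested. It ranged from 1.36 to 1.96 with each library left out in turn and was 2.26 with offsets for GC content and gene length.

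Ncr1 encodes NKp46, an activating receptor of the immunoglobulin family. Its levels were 0.487, 0.865 and 1.27 CPM across the controls and 2.01, 4.60 and 3.55 CPM across the luteolin libraries. The groups did not overlap, and luteolin replicate 2 was the highest library. Ncr1 rose by 1.95 on the log2 scale (SE 0.55, edgeR adjusted p = 0.124), and by 1.69 without luteolin replicate 2.

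Klrb1c encodes the NK1.1 antigen, a C-type lectin-like activating receptor. It had 0.229, 0.263 and 0.372 CPM across the controls and 2.11, 1.15 and 1.28 CPM across the luteolin libraries, so that the lowest luteolin library had more than the highest control library. The log2 fold change was 2.39 (SE 0.54, edgeR adjusted p = 0.0845). The assignment of reads to Klrb1c is uncertain, since 15.0% of the 75-base words of its longest transcript also occur in other genes (Gm44511, Klrb1a and Klrb1b) and its exons overlap those of Gm44511 on the same strand. Gm44511, looked up for this reason, had 0, 0 and 77 counts across the controls and 188, 290 and 177 across the luteolin libraries.

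Cd226 and Crtam are adhesion-type activating receptors of the immunoglobulin family. Cd226 (DNAM-1), which binds CD155 and nectin-2, had 0.501, 0.463 and 0.450 CPM across the controls and 0.865, 1.34 and 1.64 CPM across the luteolin libraries. It had the smallest fold change of the 6 up-regulated genes, 1.44 on the log2 scale (SE 0.50, edgeR adjusted p = 0.179). The call was the least stable of the 6. Cd226 missed the p threshold without control replicate 1, 2 or 3 and without luteolin replicate 3, with log2 fold changes of 1.46, 1.42, 1.41 and 1.17 in this order. Crtam, which is induced on activated NK and CD8+ T cells and binds Cadm1, had 0.186, 0.757 and 0.481 CPM across the controls and 2.02, 2.55 and 2.03 CPM across the luteolin libraries. All 3 luteolin libraries were above the controls, and Crtam rose by 2.21 on the log2 scale (SE 0.61, edgeR adjusted p = 0.119).

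Klra4 encodes Ly49D, an activating receptor for MHC class I, and did not pass the criterion. It had 0.987, 4.93 and 7.83 CPM across the controls and 5.88, 1.54 and 6.15 CPM across the luteolin libraries. The spread within each group was larger than the difference of the group means, and the log2 fold change was -0.02 (SE 0.81, edgeR adjusted p = 0.994). The sign depended on the setting, from -0.49 without control replicate 1 to 0.61 without control replicate 3. The lowest libraries were control replicate 1 and luteolin replicate 2, with 69 and 129 counts. In these same libraries genes of high GC content were high. Across genes, the deviation from the mean of the libraries was correlated with GC content there (Spearman 0.42 and 0.43) with values of -0.52 to -0.17 in the other 4 libraries, and the longest transcript of Klra4 has a GC content of 39.4%. With offsets for GC content and length the log2 fold change was 0.16. The other Ly49 genes tested, named with their values known, did not share this course throughout. Klra6 and Klra7 had 10 and 0 counts in control replicate 1 and 26 and 58 in luteolin replicate 2, against 37 to 56 and 81 to 241 in the other 4 libraries. Klra2, Klra3 and Klra17, whose GC content is 39.1%, 38.6% and 41.3%, had 11.3, 0.694 and 3.69 CPM in luteolin replicate 2, each above every control library. For Klra17 this was the highest library, while Klra2 and Klra3 were highest in luteolin replicate 1, with 13.6 and 0.849 CPM. Klra2 and Klra17 were lowest in control replicate 1. The part of base composition in these values was not tested beyond the offsets. BALB/c mice differ from the reference in their Ly49 genes, and whether they carry Klra4 at all was not checked. The assignment of reads to Klra4 is therefore uncertain. In the reference its transcript shares 0.3% of its 75-base words with another annotated gene, Klra1. That share does not cover the Ly49 genes of BALB/c mice.

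Klrc1 and Klrd1 encode NKG2A and CD94, which pair to form an inhibitory receptor for the non-classical MHC class I molecule Qa-1. Klrc1 had 0, 27 and 39 counts across the controls and 119, 69 and 124 counts across the luteolin libraries. Every luteolin library was higher, but the control libraries differed by as much as 39 counts and the log2 fold change of 2.20 had a standard error of 1.25 (edgeR adjusted p = 0.379). Klrc1 passed the study's criterion in voom, with a log2 fold change of 2.73, and with the GC content and length offsets, with 2.62. Of its 75-base words, 26.7% occur in other genes, mostly the activating Klrc2, whose own counts were 0, 5 and 0 across the controls and 16, 4 and 16 across the luteolin libraries. Klrd1 had 0 counts in each control library and 8, 7 and 5 counts in luteolin replicates 1, 2 and 3. These values lie above the 3 counts that a 0 allows but under the 12 that it allows where 1 read pair counts as 4, so no fold change is given. With the filter on low counts left out, Klrd1 passed the study's criterion (edgeR adjusted p = 0.236).

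Klrg1, an inhibitory receptor for cadherins that marks mature NK cells and effector T cells, had 0.515, 0.371 and 0.496 CPM across the controls and 0.539, 2.47 and 0.188 CPM across the luteolin libraries. A single library carried the group mean, since luteolin replicate 2 held 77.2% of the summed level of the 3 luteolin libraries and luteolin replicate 3 was below every control. The log2 fold change of 1.21 (SE 0.93, edgeR adjusted p = 0.525) turned to -0.33 without luteolin replicate 2. This library also had the keratinocyte genes, at 9190 CPM in sum, and the highest level of Cdh1, the cadherin that Klrg1 binds. The part of keratinocytes in the Klrg1 value was not tested.

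Nkg7 encodes a membrane protein of cytotoxic granules rather than a receptor. Its levels were 1.87, 0.865 and 1.43 CPM across the controls and 6.92, 15.3 and 5.41 CPM across the luteolin libraries. It had the largest fold change of the 9 genes tested, 2.73 on the log2 scale (SE 0.54, edgeR adjusted p = 0.0643). Luteolin replicate 2 held 55.4% of the summed level of the luteolin libraries, and without it the log2 fold change was 2.16 and still past the study's criterion.

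**Figure D2:**
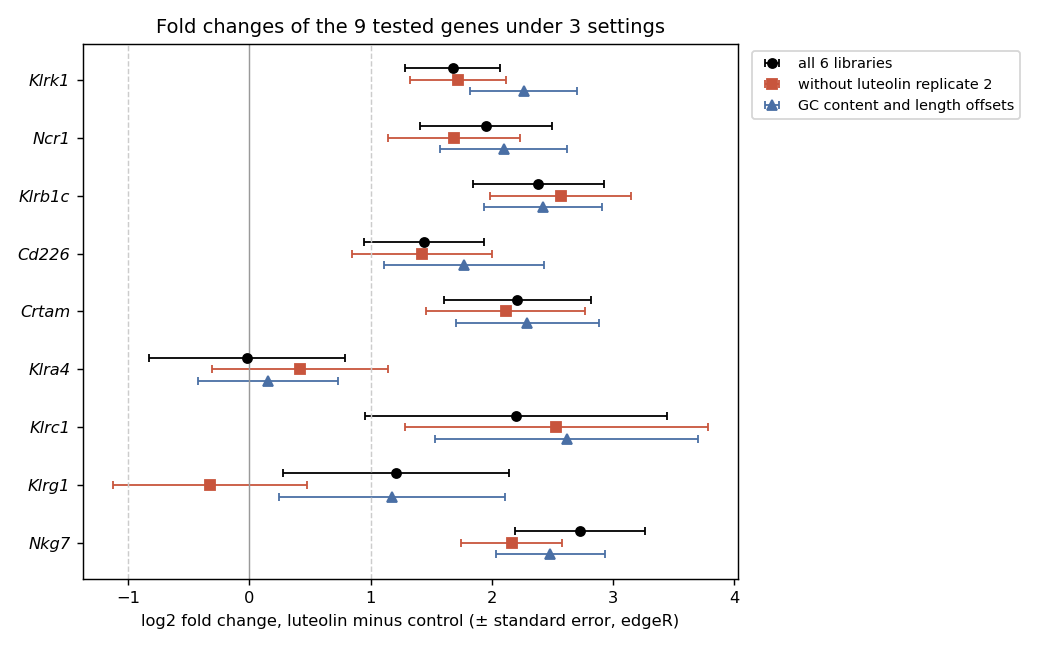
Log2 fold change of each tested gene (x axis, luteolin minus control, bars of 1 standard error) with all 6 libraries (black), without luteolin replicate 2 (red) and with offsets for GC content and length (blue), with dashed lines at a fold change of 2. Klrg1 moved from 1.21 to -0.33 without luteolin replicate 2, while Klrk1 was at 1.68 and 1.72.

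To look at the sequences ahead of the genes, the 250 bases before the start site were taken from RefSeq (GRCm38.p6), which held promoters for 6 of the 10 genes. Shown here are the up-regulated genes Ncr1 (first of 2 promoters, chr7:4337465-4337714, plus strand), Nkg7 (chr7:43436888-43437137, plus strand) and Klrk1 (chr6:129623865-129624114, minus strand), and for contrast Klra4 (chr6:130067272-130067521, minus strand), which did not pass. Each is written from 5′ to 3′ on the strand of its gene, with matches in capitals to the RUNX motif TGTGGT, the T-box motif GGTGTGA and the STAT motif TTCNNNGAA (GAS), searched on both strands.
Ncr1: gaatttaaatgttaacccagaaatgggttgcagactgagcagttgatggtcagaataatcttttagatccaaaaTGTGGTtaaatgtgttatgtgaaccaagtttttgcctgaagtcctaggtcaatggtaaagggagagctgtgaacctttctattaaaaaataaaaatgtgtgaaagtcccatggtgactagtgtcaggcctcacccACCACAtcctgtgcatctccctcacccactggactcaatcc
Nkg7: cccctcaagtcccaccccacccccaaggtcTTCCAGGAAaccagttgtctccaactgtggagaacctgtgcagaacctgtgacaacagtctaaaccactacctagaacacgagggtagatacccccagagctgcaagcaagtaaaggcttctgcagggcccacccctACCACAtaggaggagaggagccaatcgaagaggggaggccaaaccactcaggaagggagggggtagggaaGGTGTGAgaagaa
Klrk1: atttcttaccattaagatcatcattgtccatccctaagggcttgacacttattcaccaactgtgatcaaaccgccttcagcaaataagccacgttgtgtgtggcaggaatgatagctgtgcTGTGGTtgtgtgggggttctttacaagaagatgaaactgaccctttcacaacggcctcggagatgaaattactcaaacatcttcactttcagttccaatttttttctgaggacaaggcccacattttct
Klra4: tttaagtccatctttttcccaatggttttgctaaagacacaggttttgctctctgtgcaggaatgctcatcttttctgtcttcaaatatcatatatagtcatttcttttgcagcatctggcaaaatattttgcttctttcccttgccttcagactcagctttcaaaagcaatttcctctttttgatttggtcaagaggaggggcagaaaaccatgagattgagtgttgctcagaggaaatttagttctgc
RUNX and T-box factors are known regulators of cytotoxic lymphocytes. The RUNX motif was found 2 times ahead of Ncr1 and 1 time each ahead of Nkg7, Klrk1, Klrb1c and Klrc1, and 0 times ahead of Klra4, while 14.0% of the 32851 promoters of the table hold it. The match of Nkg7 and the match of Ncr1 nearest its start site lie on the opposite strand and read ACCACA. Nkg7 also had the T-box motif, 13 to 7 bases before its start site, which 3.3% of all promoters hold, and the STAT motif, which 7.0% hold. The other promoters of the 10 genes had 0 matches to these 2 motifs. A match describes the letters of the reference sequence, and binding was not measured.

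Levels were compared between the genes as CPM per kilobase of the longest GENCODE M21 transcript. In the control group the highest levels (mean ± SD, n = 3) were those of Klra4 (3.68 ± 2.76), Nkg7 (1.58 ± 0.574), Klrk1 (0.895 ± 0.368) and Ncr1 (0.585 ± 0.263), followed by Klrg1 (0.326 ± 0.0555), Klrc1 (0.172 ± 0.156), Klrb1c (0.110 ± 0.0286), Cd226 (0.105 ± 0.00589), Crtam (0.0940 ± 0.0566) and Klrd1 (0). Neighbours in this order overlapped between libraries except Crtam and Klrd1. The assignment of reads to Klra4, which leads this order, is uncertain, as said above. In the luteolin group Nkg7 led with 10.5 ± 6.05 CPM per kilobase and lay above Klra4 (3.63 ± 2.08) in every library. Klra4, Klrk1 (2.86 ± 0.0859) and Ncr1 (2.26 ± 0.871) overlapped in turn, as did Klrc1 (0.791 ± 0.325), Klrg1 (0.752 ± 0.867), Klrb1c (0.577 ± 0.198) and Crtam (0.437 ± 0.0595), whose means were lower. Cd226 (0.285 ± 0.0872) and Klrd1 (0.106 ± 0.0313) followed, each below its neighbour in every library.

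The receptors were then set against partner genes in the same library, as the log2 ratio of counts with a prior count of 2. The ratio of Ncr1 to Cd3e, a subunit of the T-cell receptor complex, was -1.99, -0.83 and -0.28 across the controls and -1.46, -1.37 and -0.31 across the luteolin libraries. The groups overlapped and their means differed by -0.01 (exact two-sided permutation test, p = 0.9), so no shift of Ncr1 relative to Cd3e was detectable with 3 libraries each. The ratio of Klrk1 to Cd8a, a chain of the CD8 coreceptor, was 0.10, 0.36 and 1.35 across the controls and -0.27, -0.06 and -0.14 across the luteolin libraries. Every luteolin library was lower than every control library, with a difference of -0.76 (exact two-sided permutation test, p = 0.1, the smallest that 3 libraries against 3 allow, and 0.4 after adjustment over 4 ratios). Without control replicate 3 the difference was -0.39. The longest transcripts of Klrk1 and Cd8a have a GC content of 32.7% and 47.2%, and the ratios were taken without offsets for GC content. The part of base composition in this ratio was not tested. Cd8a itself had 1.84 ± 0.563 CPM in the control group and 10.4 ± 0.949 CPM in the luteolin group (SD, n = 3 each) and rose by 2.51 on the log2 scale. The ratio of Klrk1 to Hcst, the gene of its adaptor DAP10, differed by 0.34 (exact two-sided permutation test, p = 0.7). That of Klrc1 to Klrd1 differed by 0.79 (exact two-sided permutation test, p = 0.9) and rests on the few counts of Klrd1.

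**Figure D3:**
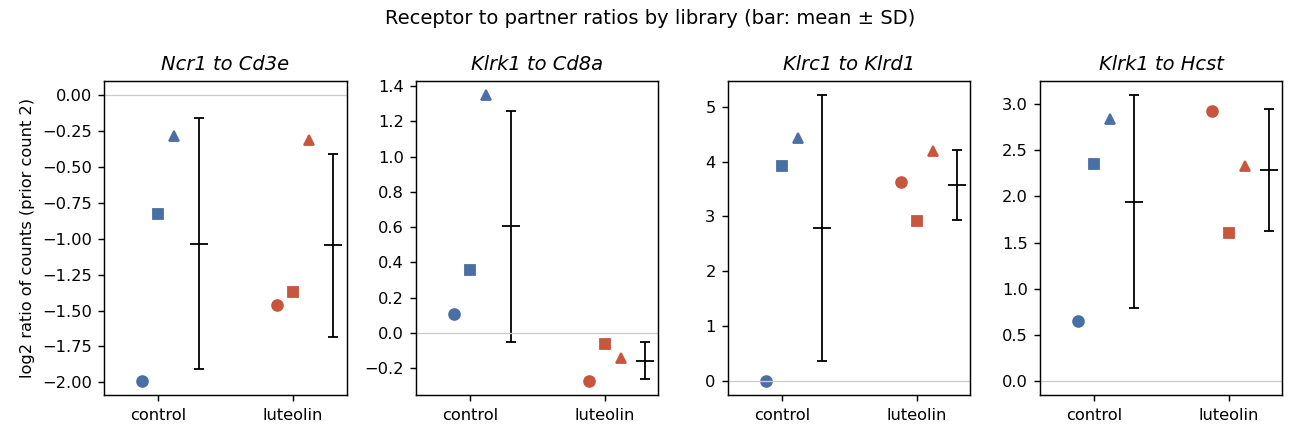
Log2 ratio of counts (y axis, a scale of its own in each panel) of a receptor gene to a partner gene in each library of the control and luteolin groups (x axis), with circles, squares and triangles for replicates 1, 2 and 3 and black bars for the mean ± SD. The ratio of Klrk1 to Cd8a lay from -0.27 to -0.06 in the luteolin group and from 0.10 to 1.35 in the control group, while the groups overlapped in the other 3 ratios.

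The T-cell genes were also higher in the luteolin group. All 10 T-cell genes in the table were up-regulated at the study's criterion, with a median log2 fold change of 2.16 where that of all genes tested was -0.01, and their summed level ranged from 12.6 to 15.6 CPM in the control group and from 48.7 to 87.1 CPM in the luteolin group. The part of T cells in the receptor values was not tested. Of the tested genes of other cell types, up-regulated were 3 of 5 B-cell, 1 of 7 macrophage, 4 of 6 neutrophil, 5 of 6 mast cell, 8 of 8 keratinocyte, 3 of 4 fibroblast, 2 of 3 endothelial and 1 of 5 hepatocyte genes, and 0 of 6 skeletal muscle and 0 of 5 adipocyte genes. The genes with the highest levels in these lists were Cd4, Jchain, C1qa, Csf3r, Mcpt4, Krt14, Col3a1, Pecam1, Afp, Myh4 and Fabp4. In the same setting 0 genes of these lists were down-regulated.

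Of 26 other NK receptor genes, 18 were tested and 6 were up-regulated at the study's criterion, with a median log2 fold change of 1.38. Counted in either direction, 4 passed without control replicate 2 or luteolin replicate 1, and 11 without control replicate 3. The 6 up-regulated genes were Klrb1b, Klre1, Klra17, Cd244a, Cd96 and Slamf7. Klrb1b, an inhibitory relative of Klrb1c, rose from 1.21 ± 0.0577 to 7.23 ± 3.93 CPM (SD, n = 3 each), and the log2 fold change was 2.58 (SE 0.54, edgeR adjusted p = 0.0729). Klre1, a lectin-like receptor, rose by 2.48 on the log2 scale from a level of 0.102 CPM. Fcgr3, the Fc receptor CD16 that myeloid cells carry as well, had 95.6 ± 8.94 CPM in the control group and 159 ± 11.6 CPM in the luteolin group (SD, n = 3 each), with a log2 fold change of 0.73 that was under the fold threshold. Tigit, the inhibitory receptor that competes with Cd226 for CD155, had 831, 1023 and 940 counts in the controls and 900, 1270 and 782 in the luteolin libraries, and its log2 fold change was -0.0046 (SE 0.22). In the control group Tigit had 14.1 CPM, far above Cd3e with 1.71 CPM and Ncr1 with 0.874 CPM. Which cells carry the Tigit RNA was not tested.

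Ligands of the receptors were examined in the same libraries. Of 17 ligand genes 13 were in the table, 11 were tested and 1, Cdh1, was up-regulated at the study's criterion, while 0 were down-regulated, with a median log2 fold change of 0.79. Counted in either direction, 2 passed without control replicate 1, luteolin replicate 2 or luteolin replicate 3. Cdh1, which encodes E-cadherin, the epithelial ligand of Klrg1, had 3.83, 4.91 and 5.94 CPM across the controls and 28.6, 151 and 20.3 CPM across the luteolin libraries, highest in the library with the keratinocyte genes. The NKG2D ligand gene Ulbp1 was the most abundant of its kind, with 225 ± 71.8 CPM in the control group and 120 ± 45.8 CPM in the luteolin group (SD, n = 3 each), and the log2 fold change of -0.91 (SE 0.36, edgeR adjusted p = 0.216) did not reach the fold threshold. The other NKG2D ligands tested, Raet1d and Raet1e, had log2 fold changes of 1.29 and 1.28 at levels of 0.332 and 0.419 CPM in the control group and did not pass. Pvr (CD155) and Nectin2, the ligands of Cd226, had log2 fold changes of 0.43 and 0.63, and Cadm1, the ligand of Crtam, -0.52, and none of these 3 passed. H2-T23, which encodes Qa-1, had 101 ± 1.55 CPM in the control group and 185 ± 53.4 CPM in the luteolin group (SD, n = 3 each), above the controls in every luteolin library but with a log2 fold change of 0.87, and H2-D1, a class I ligand of Ly49 receptors, had a log2 fold change of 0.79. The cadherins Cdh2 and Cdh4 had log2 fold changes of 0.51 and 3.02 and did not pass, and Cdh4 had 339 of its counts in luteolin replicate 2 and 0 in the other luteolin libraries.

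Of the 23 adaptor and signalling genes, all of them tested, 13 were up-regulated and 0 down-regulated at the study's criterion, with a median log2 fold change of 1.43. Of these 6 also had an adjusted p under 0.05 in edgeR's test with Benjamini-Hochberg adjustment, namely Lcp2, Syk, Fyn, Vav1, Inpp5d and Zap70. Without luteolin replicate 2 the number of the 23 past the study's criterion in either direction was 9. Hcst, the adaptor of NKG2D, had 0.715 ± 0.263 CPM in the control group and 2.01 ± 0.882 CPM in the luteolin group (SD, n = 3 each), and the log2 fold change was 1.49 (SE 0.54, edgeR adjusted p = 0.192). Tyrobp (DAP12) and Fcer1g, adaptors of Ly49 receptors and NKp46 that myeloid cells also express, rose by 1.25 and 1.57 on the log2 scale. Lcp2, the scaffold SLP-76, had 1792, 1562 and 1749 counts in the controls and 3973, 7199 and 3569 in the luteolin libraries and rose by 1.43 on the log2 scale, and the kinases Syk and Fyn rose by 1.57 and 1.51 on the log2 scale. Plcg1 and the phosphatase gene Ptpn11, which had the highest levels of the list, had log2 fold changes of -0.20 and -0.32 and did not pass.

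Of 23 cytotoxic effector genes, 17 were up-regulated and 0 down-regulated at the study's criterion, with a median log2 fold change of 1.85, and 5 had an adjusted p under 0.05 in edgeR's test. Without luteolin replicate 2 the number past the study's criterion in either direction was 15. Gzmb, which encodes granzyme B, rose by 2.86 on the log2 scale, and the chemokines Ccl5, Ccl4 and Ccl3 rose by 3.05, 3.41 and 2.71. Ctsc, the protease that activates granzymes, rose from 188 ± 35.8 to 392 ± 32.3 CPM (SD, n = 3 each), and the log2 fold change was 1.06. Lamp1, a lysosomal membrane protein found in most cells, had 901 ± 49.5 CPM in the control group and 797 ± 42.5 CPM in the luteolin group (SD, n = 3 each) and did not pass.

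Of 25 genes for transcription factors and cytokines of NK cells and their receptors, 15 were up-regulated and 0 down-regulated at the study's criterion, with a median log2 fold change of 1.71, and 4 had an adjusted p under 0.05 in edgeR's test. Id2, a factor needed for innate lymphoid cells, rose from 7.83 ± 0.850 to 25.1 ± 3.71 CPM (SD, n = 3 each), Prdm1 rose by 1.76 and the interleukin-18 receptor gene Il18r1 by 2.49 on the log2 scale. Il2rg, the common cytokine receptor chain, had 46.8 ± 4.38 and 90.4 ± 11.8 CPM (SD, n = 3 each), with a log2 fold change of 0.95 just under the fold threshold and an adjusted p of 0.0480 in edgeR's test. Zeb2 had a log2 fold change of 0.60 and did not pass. Of the T-box factors, picked once their values were known, Tbx21 (T-bet) had 0.565 ± 0.256 CPM in the control group and 3.47 ± 1.46 CPM in the luteolin group (SD, n = 3 each) and rose by 2.62 on the log2 scale, whereas Eomes had 82.0 ± 11.1 and 45.2 ± 8.05 CPM (SD, n = 3 each), below the controls in every luteolin library with a log2 fold change of -0.86 that did not reach the fold threshold. In the control group Ncr1 had 0.874 CPM and Cd3e 1.71 CPM, far below Eomes, and which cells carry the Eomes RNA was not tested.

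**Figure D4:**
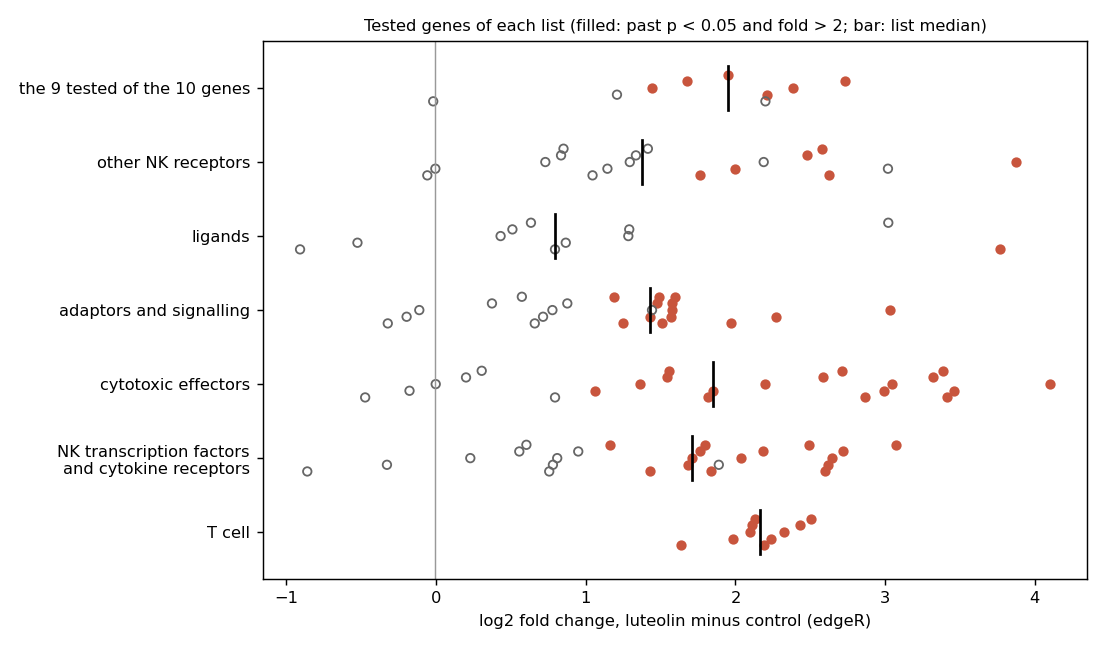
Log2 fold change (x axis, luteolin minus control) of every tested gene of each list (rows), filled where the gene passed the study's criterion, with a black bar at the list median and a grey line at the median of all genes tested. The 10 T-cell genes are all filled, and of the ligands Cdh1 alone is.

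Genes with a course over the 6 libraries like the mean profile of the 9 tested genes were sought. The measure was the root mean square difference between log2 CPM profiles, each centred on its own mean. The nearest were C130026I21Rik (0.110), Ddx60 (0.125), Kynu (0.129), Irgm1 (0.165) and Cxcl9 (0.173). Cxcl9, a chemokine, had 32.4, 68.9 and 61.5 CPM across the controls and 151, 163 and 165 CPM across the luteolin libraries. Among the 9 genes Klrk1 was nearest to their mean profile, at 0.0919, and Klrc1, Klrg1 and Klra4 were farthest, at 1.26, 1.24 and 1.18. Ncr1, Crtam, Klrb1c, Cd226 and Nkg7 lay between, at 0.340, 0.428, 0.452, 0.545 and 0.850. The nearest genes named above were thus closer to this mean profile than any of the 9 except Klrk1.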

How the data were processed

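RNA-seq libraries of H22 tumours were analysed, 3 from the control group and 3 from the luteolin group. For each gene symbol the deposited table holds a whole number, with totals that differ between libraries, analysed here as estimated counts. The submitters' processing notes name HISAT2, StringTie and DESeq2 and the builds mm39 and rn6, and the counting step and annotation are not given in the sources used here. All 6 columns were used and 0 left out. The table was fitted in R 4.3.3 with edgeR 4.0.16 (TMM, filterByExpr, quasi-likelihood test, no covariates, two-sided, Benjamini-Hochberg adjustment over 14963 genes), with fold changes of luteolin over control. CPM are scaled by TMM. The alternatives were DESeq2 1.42.0, voom of limma 3.58.1, RLE and upper-quartile normalization, other filters, values divided by 4, GC content and length offsets, a replicate block and each library left out. Transcript lengths and GC content came from GENCODE M21 (GRCm38). The pipeline was tested on simulated data. The 10 genes and the lists were chosen with earlier results of these data known. Named are the 10 genes, of each pathway list the 3 genes with the smallest p and the 2 with the highest level, every tested ligand, the ratio partners, the 5 nearest profiles, and of each cell type list the highest gene, except 1 list that is not reported here. Klra2, Klra3, Klra6, Klra7, Klra17, Klrc2, Ccl3, Gpc3, Alb, Apoa1, Ttr, the keratinocyte genes at 0, Gm44511, Tyrobp, Fcer1g, Tbx21, Eomes, and genes named to list a count, lie outside this rule and were chosen after their values were seen.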

Additional observations from a re-analysis of the deposited data

How the results depend on the processing

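Over the alternatives, 5 to 7 of the 10 genes passed the study's criterion, and Klrk1, Ncr1, Klrb1c, Crtam and Nkg7 passed in every setting run. At an adjusted p under 0.05, where edgeR gave 0 of the 10 genes, there were 5 with DESeq2, 5 with voom, 2 with at least 10 counts in every library, 1 with values divided by 4 and 3 with the GC content and length offsets. Over all genes edgeR gave 200 higher and 28 lower at an adjusted p under 0.05, against 1421 and 424 with DESeq2, 1886 and 1311 with voom, 345 and 47 with at least 10 counts in every library, 327 and 46 with values divided by 4 and 664 and 235 with the offsets. Leaving out each library gave 0 to 276 higher and 0 to 36 lower genes, with 0 in each direction without control replicate 1, 2 or 3 or luteolin replicate 1, and at p under 0.05 before adjustment those settings had 1907 to 2462 genes. The genes higher at the study's criterion were 1687 in edgeR and 1139 to 2104 with each library left out, lowest without luteolin replicate 2. The genes lower at the study's criterion were 227 in edgeR, 498 in voom and 140 to 305 with each library left out, lowest without control replicate 3. In either direction, the other NK receptors past the study's criterion were 6, with 13 in voom and 4 to 11 with each library left out. The ligands past it were 1, with 3 in voom and 1 to 2 with each library left out. In voom 1752 genes were higher and 498 lower, so that 77.9% were higher, against 1687 and 227, or 88.1%, in edgeR. The difference in the ratio of Ncr1 to Cd3e was 0.0036 with a prior count of 0.5 and -0.49 to 0.36 with each library left out, that of Klrc1 to Klrd1 -0.24 and -0.61 to 1.61, and with each library left out that of Klrk1 to Hcst was -0.31 to 0.79 and that of Klrk1 to Cd8a -1.01 to -0.39. The log2 fold change of Klra4 was 0.35 in voom, 0.033 with upper-quartile normalization, 0.0083 with at least 10 counts in every library, 0.16 with the offsets and 0.088 with the replicate block, and without control replicate 2, control replicate 3 and luteolin replicate 2 it was 0.050, 0.61 and 0.42. That of Klrg1 was -0.33 without luteolin replicate 2 and at most 1.62 with another library left out, 0.23 in voom and 0.44 with the replicate block. Klrc1 could not be fitted with at least 10 counts in every library, nor Klrg1 with values divided by 4. The cause of these changes was not tested. No pairing of the libraries by replicate number was seen in the correlations of the deviations from the group means, -0.20, -0.092 and 0.063. With 3 libraries per group these cannot show whether the libraries were paired. The replicate block gave 34 genes higher and 1 lower at an adjusted p under 0.05. It gave 5 of the 10 genes at the study's criterion, without Cd226. The differences in the 4 ratios, -0.01, -0.76, 0.79 and 0.34, cannot change with the block, since the replicate numbers are balanced over the groups.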
